A study of Mus musculus with 4 samples.

Results

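Heat shock proteins and chaperones were followed in cells of the mouse cerebrum described as CD31+CD45-, from Mgp fl/fl mice with and without tamoxifen. Neither the loss of Mgp nor that sort is borne out in the libraries labeled tamoxifen by the mRNA levels given below, and the libraries are named by their labels throughout. The 10 genes were chosen by name, namely Hspa1a, Hspa1b, Hsph1, Dnajb1, Hspb1, Hsp90aa1, Hspa8, Hspa5, Hspd1 and Hspe1, and were found among 24873 genes listed with normalized counts. All 10 passed the filter on low values (a mean of 10 normalized counts or more), which left 20485 genes for testing. A normalized count is the number of reads on a gene divided by one factor per library. The genes were divided into 6 that are known for induction by heat and other stress (Hspa1a, Hspa1b, Hsph1, Dnajb1, Hspb1 and Hsp90aa1) and 4 that most cells make without stress (Hspa8, Hspa5, Hspd1 and Hspe1). The border is not sharp, because Hspd1, Hspe1 and Hspa8 can also respond to heat, Hspa5 responds to stress of the endoplasmic reticulum, and Hsp90aa1 is made in many unstressed cells.

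Chaperones bind proteins that are unfolded or still folding and keep them from aggregating. In the cytosol, HSP70 proteins take up clients with the help of J-domain cochaperones, release them through HSP110 exchange factors and pass some of them to HSP90, while small heat shock proteins hold unfolded proteins in a state from which they can be refolded. Mitochondria and the endoplasmic reticulum have chaperones of their own. Heat shock factor 1 activates the inducible genes through inverted repeats of GAA in their promoters, called heat shock elements, and the unfolded protein response activates chaperones of the endoplasmic reticulum through the ER stress element. In endothelium, Hspb1 is also known for its action on actin filaments and HSP90 for its binding to endothelial nitric oxide synthase.

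All mice were C57BL/6J and VE-cadherin cre/ERT2 Mgp fl/fl (genotype label Cdh5cre;Mgpflox/flox), in which tamoxifen activates a recombinase made under the VE-cadherin promoter. The tamoxifen group was injected with 75 mg/kg daily for 5 days, starting at 10 weeks of age, and the control group had the same genotype without tamoxifen, so that an effect of tamoxifen itself and one of recombination cannot be told apart. The 2 control and 2 tamoxifen libraries were made on day 9, each from cells pooled from 3 mice (both sexes were used in the study), after papain dissociation at 37 °C for 40 minutes, cell labeling and FACS. The labels name the cells by tdTomato instead of CD31 and CD45, and the 2 pools of a group are the only replicates behind its values.

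Between 35387438 and 49799321 reads fell on genes in each library, and 3 reads correspond to between 2.16 and 4.11 normalized counts. Mgp had 1094 and 1352 normalized counts in controls and 945 and 909 after tamoxifen and was not called (log2 fold change -0.39, limma, BH-adjusted p = 0.0986). A loss of Mgp in the libraries labeled tamoxifen was therefore not shown by the level of its mRNA. The study itself reports a fall of Mgp after tamoxifen by real-time PCR of sorted cerebral endothelial cells. The bulk values here do not separate endothelial from other cells. All 13 endothelial markers were lower in the tamoxifen libraries, in which their summed normalized counts were 244972 and 123445 against 1341295 and 1352684, although none fell to the level of 3 reads in both. Pecam1, the gene of CD31, fell by 2.85 and Cdh5, the gene of VE-cadherin, by 2.84 on the log2 scale. Ptprc, the gene of CD45, which the sort was to leave out, had 50.7 and 83.9 normalized counts in controls and 1423 and 1119 after tamoxifen (log2 fold change 4.25, limma, BH-adjusted p = 4.99e-05). Relative to controls, Pecam1 mRNA was thus lower and Ptprc mRNA higher in the libraries labeled tamoxifen, the opposite of what the stated sort selects for. Protein on the cell surface, which the sort used, is not measured by these values. Markers of most other cells and of division rose. Called higher (limma, BH-adjusted p under 0.05) were 10 of 10 neutrophil, 8 of 8 erythroid, 6 of 6 tested lymphocyte, 7 of 9 microglia and macrophage and 6 of 6 fibroblast genes. So were 9 of 9 astrocyte, 8 of 9 oligodendrocyte, 6 of 8 neuron, 6 of 7 tested skeletal muscle, 12 of 12 cell cycle and 10 of 12 pluripotency genes (the other 2 lower). Of the mural markers, only 1 of 9 was called higher and 0 lower. Over all tested genes, 33.4% were called higher and 25.5% lower. The cell cycle genes summed to 3660 and 4364 normalized counts in controls and 111167 and 103089 after tamoxifen. The corresponding sums were 723 and 1233 against 118679 and 88363 for neutrophil, 19360 and 39341 against 174230 and 113071 for erythroid, 29267 and 34919 against 151803 and 315604 for astrocyte and 2257 and 3213 against 69745 and 59759 for fibroblast markers, and the defining markers with at most 3 reads in both control libraries were Ly6g, Cd3e, Cd3d, Cd3g, Utf1, Myh4, Tnnt3 and Myod1. These marker levels differed between the same groups as the results below, and their part in the chaperone values was not tested. In such bulk libraries, fewer cells of a type and less RNA per cell cannot be told apart.

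The promoters are shown first, because both classes are defined by how their genes are switched on. Windows of 250 bases before and 50 after the start of each gene's canonical transcript (GENCODE M39, GRCm39) were searched on both strands, and other annotated starts were not searched. A heat shock element with 3 repeats, TTCNNGAANNTTC, was found in 2 of the 10 windows and in 0.478% of the windows of 21756 protein-coding genes. Its core of 2 repeats, GAANNTTC, which is part of the longer element, was found in 6 of 10 windows (Hspa1a, Hspa1b, Dnajb1, Hspb1, Hspd1 and Hspe1) and in 7.41% of all windows. The opposite order of these repeats, TTCNNGAA, was not searched by itself. The ER stress element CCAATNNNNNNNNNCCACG, which contains a CCAAT box, was found in Hspa5 only among the 10 genes and in 0.124% of all windows. The CCAAT box itself was found in 7 of 10 windows against 39.9% of all, and the letters TATAAA in 0 of 10 against 13.2%.

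The 120 bases before the start are given for Hspa1a (chr17:35191133-35191252, minus strand), Hspa1b (chr17:35178215-35178334, minus strand), Hspb1 (chr5:135916640-135916759, plus strand) and Hspa5 (chr2:34661984-34662103, plus strand), since they cover the genes with the steepest falls and the one gene with the ER stress element. Hspd1 and Hspe1 start 108 bases apart and point away from each other, so the 107 bases between their starts (chr1:55127184-55127290, plus strand) serve both. Capitals mark the core of the heat shock element, the 2 overlapping 3-repeat elements between Hspe1 and Hspd1, and the ER stress element in Hspa5. All sequences are from GRCm39 and are written 5′ to 3′ on the strand named.
Hspa1a: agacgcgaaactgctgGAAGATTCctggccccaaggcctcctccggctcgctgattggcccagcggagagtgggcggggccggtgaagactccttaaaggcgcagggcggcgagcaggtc
Hspa1b: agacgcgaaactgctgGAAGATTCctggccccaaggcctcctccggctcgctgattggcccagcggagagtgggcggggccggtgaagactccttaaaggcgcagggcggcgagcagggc
Hspb1: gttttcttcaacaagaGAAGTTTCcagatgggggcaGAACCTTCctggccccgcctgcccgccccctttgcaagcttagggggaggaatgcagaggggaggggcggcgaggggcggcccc
Hspa5: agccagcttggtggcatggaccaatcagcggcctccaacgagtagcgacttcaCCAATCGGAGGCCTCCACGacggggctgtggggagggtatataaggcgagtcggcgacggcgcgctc
Hspe1 and Hspd1: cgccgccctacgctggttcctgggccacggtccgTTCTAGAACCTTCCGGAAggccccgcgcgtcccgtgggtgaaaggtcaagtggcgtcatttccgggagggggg

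The promoters of Hspa1a and Hspa1b differed at 1 of the 120 bases shown and at 4 of the 300 bases searched (98.7% identical), and their starts lie 12918 bases apart. Counted from the start, the core began at base -104 in both, at -104 and -84 in Hspb1, at -47 in Hspd1, at -68 in Hspe1 and at base 29 of the transcript in Dnajb1. The ER stress element of Hspa5 began at base -67. None of these elements was found in the windows of Hsph1, Hsp90aa1 and Hspa8, which says only that the letters searched are absent from those windows. The window of Hsph1 does hold ttctcgaa, which has the repeats in the order that was not searched by itself.

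**Figure D1:**
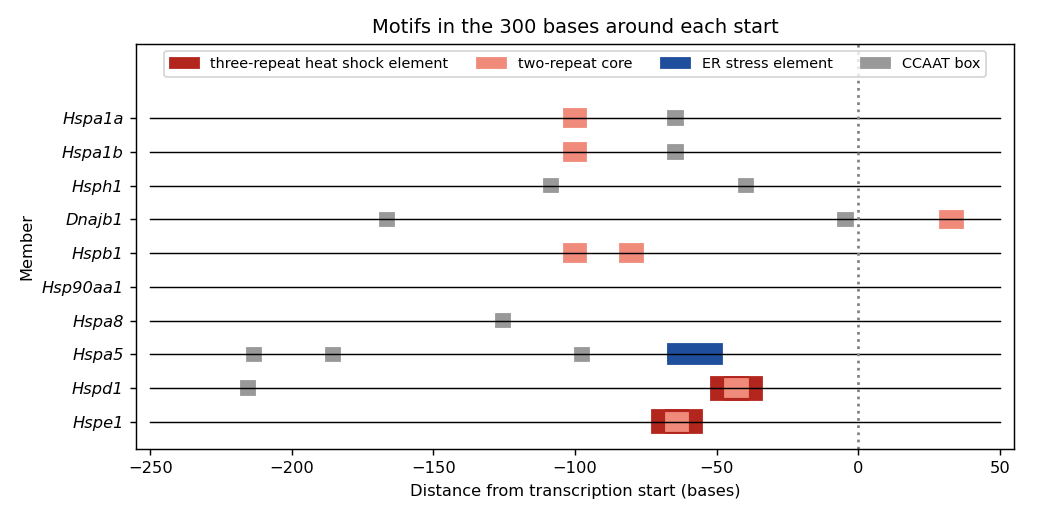
Motifs in the window from 250 bases before to 50 bases after the start of each of the 10 genes, with the distance from the transcription start in bases on the x axis and one line per gene. The 2-repeat core of the heat shock element, searched as GAANNTTC, lies in 6 windows, the 3-repeat element only in those of Hspd1 and Hspe1, and the ER stress element in that of Hspa5.

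The chaperones differed between the groups in both directions. Of the 10 genes, 3 were higher in the tamoxifen libraries (Hsp90aa1, Hspd1 and Hspe1), 4 were lower (Hspa1a, Hspa1b, Hspb1 and Dnajb1) and 3 were not called (Hsph1, Hspa8 and Hspa5) at a BH-adjusted p under 0.05 with limma. Among all tested genes 58.9% were called, 33.4% higher and 25.5% lower, so 7 called of 10 is near the background and is no result about chaperones as a set. With a log2 fold change over 1 in size as a second limit, 3 were higher and 3 lower, against 28.6% and 16.0% (44.7% in all) of the tested genes. The libraries of the groups did not overlap for 4 genes on the higher and 4 on the lower side, as for 43.1% and 39.2% (82.3% in all) of the tested genes. Leaving out any library lowered the number of all tested genes called, most so for the tamoxifen libraries. Without tamoxifen library 2, only Hspb1 remained among the 4 called lower, whereas the 3 called higher were called without each library in turn.

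**Figure D2:**
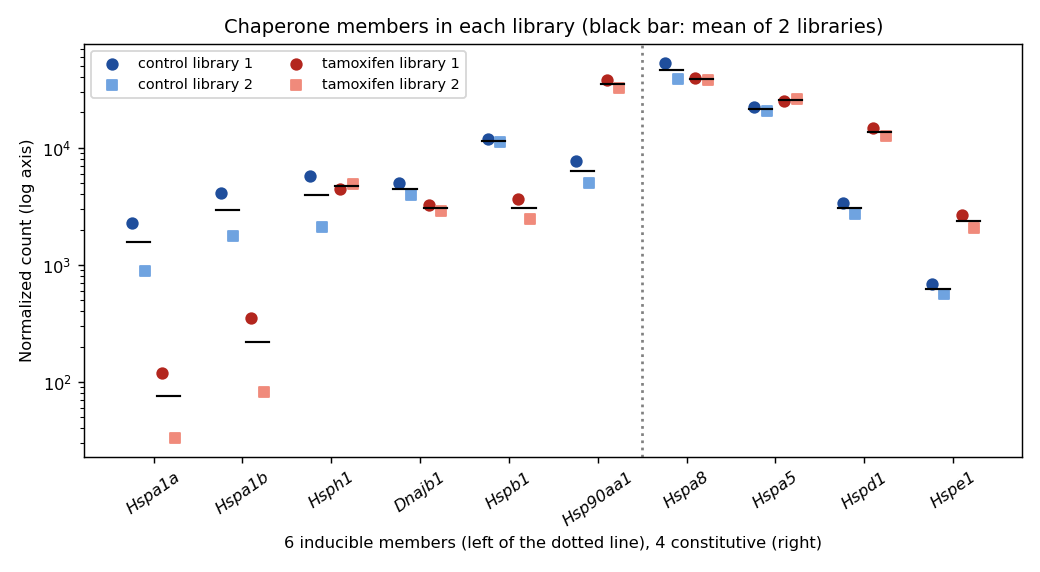
Normalized counts (log axis) of the 10 genes in each of the 4 libraries, with points for control (blue) and tamoxifen (red) libraries and a black bar at the mean of 2. Hspa1a and Hspa1b lie far lower in the tamoxifen libraries, Hsp90aa1, Hspd1 and Hspe1 lie higher, and Hspa8 and Hsph1 overlap between the groups.

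The inducible HSP70 genes fell most. Hspa1a (chromosome 17, 35188166 to 35191132, minus strand, 1 exon) had 2257 and 877 normalized counts in control libraries 1 and 2, against 119 and 33.1 in tamoxifen libraries 1 and 2. The tamoxifen values were all below the control values, yet libraries of the same group also differed by 2.57-fold (control) and 3.61-fold (tamoxifen). The mean fell 20.6-fold, with a log2 fold change of -4.46 (standard error 0.63, 95% interval -5.93 to -2.99, limma, BH-adjusted p = 0.000658). Without tamoxifen library 2 it was -3.55 (limma, BH-adjusted p = 0.0803), and the adjusted p over the alternatives ranged from 4.39e-43 to 0.0803.

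Hspa1b (chromosome 17, 35175412 to 35178214, minus strand, 1 exon), which encodes a nearly identical HSP70, had 4082 and 1753 normalized counts in controls and 352 and 82.0 after tamoxifen. It followed the same order over the libraries as Hspa1a, with control library 1 highest and tamoxifen library 2 lowest. The mean was 13.4-fold lower after tamoxifen, at a log2 fold change of -3.97 (standard error 0.65, limma, BH-adjusted p = 0.00131). It was -2.92 without tamoxifen library 2 (limma, BH-adjusted p = 0.0877).

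The values of the pair are not fully independent. Of the 75-base windows of the Hspa1a transcript, 52.7% also occur in Hspa1b, and of those of Hspa1b 55.8% occur in Hspa1a, so the split of reads between them is uncertain. Their sum was 6339 and 2631 normalized counts in controls and 471 and 115 after tamoxifen, which does not depend on that split if reads on both were kept. On the opposite strand, exons of Gm20481 cover 19.0% of the Hspa1a transcript, and whether counting used strand is not given in the sources used here.

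Over 132 tested genes of the chaperone lists, the gene with the profile closest to that of Hspa1a was Hspa1b, with a root mean square difference of 0.27 between log2 values centered over the 4 libraries. It was followed by Hspa12b at 0.93 and Hspb1 at 1.41. Hspa12b, a distant HSP70 relative that is abundant in endothelium, had 26648 and 31080 normalized counts in controls and 4688 and 2414 after tamoxifen (log2 fold change -3.10, limma, BH-adjusted p = 0.000116). Unlike Hspa1a, it was higher in control library 2 than in control library 1.

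Hspb1 (chromosome 5, 135916760 to 135918417, plus strand, 3 exons), the small heat shock protein HSP27, also known as HSP25 in mice, had 11828 and 11108 normalized counts in controls and 3674 and 2449 after tamoxifen. The control libraries were nearly equal, and both tamoxifen libraries lay well below them. The mean was 3.75-fold lower, with a log2 fold change of -1.93 (standard error 0.21, limma, BH-adjusted p = 0.000194). All 14 alternatives called it lower, with log2 fold changes between -2.23 and -1.46. A pseudogene, Hsp25-ps1, shares 56.8% of the 75-base windows of its transcript.

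Dnajb1 (chromosome 8, 84334811 to 84339820, plus strand, 3 exons), the J-domain cochaperone HSP40 that delivers clients to HSP70, had 4967 and 3920 normalized counts in controls and 3217 and 2869 after tamoxifen. The groups did not overlap, but they were separated by less than the control libraries were from each other. The mean was 1.46-fold lower, with a log2 fold change of -0.54 (standard error 0.17, limma, BH-adjusted p = 0.0292). With the libraries rescaled to equal totals it was -0.07 (limma, BH-adjusted p = 0.731), and 8 of 14 alternatives called it. Leaving out control library 1, tamoxifen library 1 or tamoxifen library 2 also ended the call, with log2 fold changes of -0.37, -0.62 and -0.46.

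Hsph1 (chromosome 5, 149537636 to 149560156, minus strand, 18 exons), the HSP110 exchange factor that resets HSP70, had 5754 and 2089 normalized counts in controls and 4455 and 4889 after tamoxifen. Both tamoxifen libraries lay between the control libraries, which differed 2.75-fold. Its log2 fold change of 0.43 was not called (standard error 0.40, limma, BH-adjusted p = 0.385). Its direction rested on a single control library, being 1.16 without control library 1 (limma, BH-adjusted p = 0.000411) and -0.30 without control library 2.

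Hsp90aa1 was the one inducible gene that rose. The gene (chromosome 12, 110656842 to 110669166, minus strand, 11 exons in the canonical transcript) encodes the stress-inducible form of cytosolic HSP90, which matures kinases and steroid receptors, and it had 7701 and 4955 normalized counts in controls and 38187 and 32020 after tamoxifen. Both tamoxifen libraries exceeded the higher control library several times over. The mean was 5.55-fold higher, with a log2 fold change of 2.50 (standard error 0.25, limma, BH-adjusted p = 0.000129), and all 14 alternatives called it higher. Other genes, mainly Gm12346, share 49.3% of the 75-base windows of its transcript.

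Among the constitutive genes, both subunits of the mitochondrial folding chamber rose. Hspd1 (chromosome 1, 55116989 to 55171038, minus strand, 12 exons in the canonical transcript), which encodes the HSP60 barrel, had 3350 and 2736 normalized counts in controls and 14620 and 12509 after tamoxifen. Its neighbor Hspe1 (chromosome 1, 55127260 to 55130476, plus strand, 4 exons), which encodes the HSP10 lid, had 679 and 562 in controls and 2644 and 2077 after tamoxifen. Neither gene overlapped between groups, and libraries of one group differed by at most 1.27-fold for both.

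The mean of Hspd1 was 4.46-fold higher after tamoxifen (log2 fold change 2.16, standard error 0.18, limma, BH-adjusted p = 6.47e-05). That of Hspe1 was 3.80-fold higher (log2 fold change 1.92, standard error 0.20, limma, BH-adjusted p = 0.000143), and all 14 alternatives called both higher. These are the genes whose shared promoter held the 3-repeat element shown in capitals. Per kilobase of transcript, Hspe1 stood at 63.5% and 64.3% of Hspd1 in controls and at 56.6% and 52.0% in the tamoxifen libraries. Pseudogenes and copies share 33.7% of the windows of Hspd1 and 23.7% of those of Hspe1, and exons of Hspd1 cover 14.5% of the Hspe1 transcript on the opposite strand.

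Hspa8 (chromosome 9, 40711630 to 40731039, plus strand, 9 exons), the constitutive cytosolic HSP70 that also uncoats clathrin vesicles, had 53124 and 38885 normalized counts in controls and 39640 and 37642 after tamoxifen. The groups overlapped, with control library 1 apart from the other three. The log2 fold change was -0.23 (standard error 0.27, 95% interval -0.86 to 0.39, limma, BH-adjusted p = 0.473), and its sign turned with the scaling, being 0.24 with equal totals and 0.79 after quantile normalization (limma, BH-adjusted p = 0.0134). Of its 75-base windows, 68.0% also occur in 10 other genes, mainly Gm15459. The chaperone list genes with the profile closest to that of Hspa8 were Clpx and Dnajb1, with root mean square differences of 0.16 each, and Dnajc27 with 0.17.

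Hspa5 (chromosome 2, 34661982 to 34668880, plus strand, 8 exons), the HSP70 of the endoplasmic reticulum known as BiP, had 22454 and 20367 normalized counts in controls and 24950 and 26276 after tamoxifen. Both tamoxifen libraries lay above both control libraries by a small margin. The log2 fold change of 0.26 was not called (standard error 0.20, 95% interval -0.21 to 0.73, limma, BH-adjusted p = 0.298). It was called at 0.73 with equal totals (limma, BH-adjusted p = 0.00889) and at 1.05 after quantile normalization (limma, BH-adjusted p = 0.00304). Exons of Rabepk cover 44.5% of its transcript on the opposite strand.

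**Figure D3:**
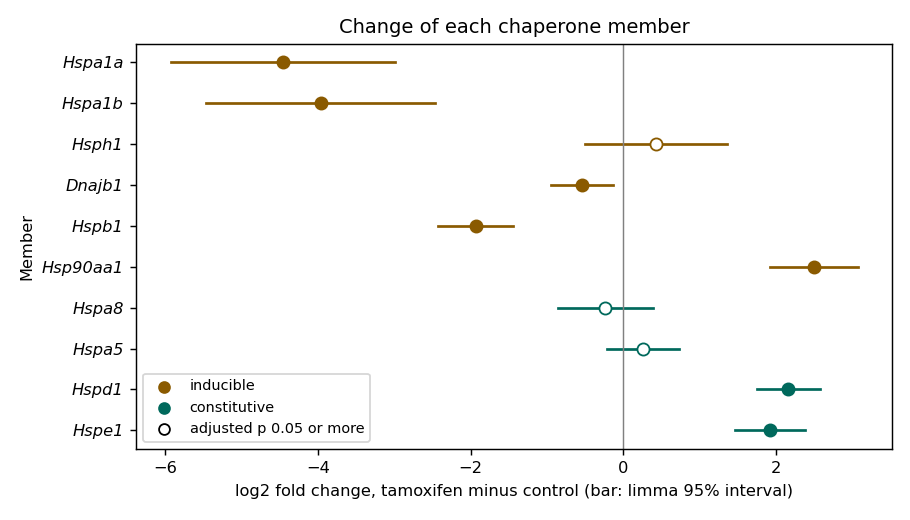
log2 fold change of each of the 10 genes, tamoxifen minus control, with limma's 95% interval as a bar, brown for inducible and green for constitutive genes, and open circles for genes with a BH-adjusted p of 0.05 or more. Of the 6 inducible genes, 4 lie below 0 and Hsp90aa1 and, as an open circle, Hsph1 lie above. Of the constitutive genes, Hspd1, Hspe1 and, as an open circle, Hspa5 lie above 0 and Hspa8, also open, below.

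The scaling of libraries matters for the small changes. After the authors' normalization, the tamoxifen libraries summed to 0.722 of the control libraries, and the median log2 fold change of all tested genes was 0.05. Rescaling to equal totals raised that median by 0.47, and quantile normalization lowered it by 0.28. Hspa1a, Hspa1b, Hspb1, Hsp90aa1, Hspd1 and Hspe1 kept their direction and their call under both.

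To compare inducible with constitutive chaperones, the mean log2(normalized count + 1) of the 4 constitutive genes was subtracted from that of the 6 inducible genes in each library. The difference was -0.43 and -0.99 in controls and -2.74 and -3.39 after tamoxifen. It was thus lower in both tamoxifen libraries, by 2.35 on average, against a pooled SD of 0.431 between libraries of a group. The inducible genes had 1 call higher and 4 lower, with a median log2 fold change of -1.24, and the constitutive genes 2 higher and 0 lower, with a median of 1.09, beside a median of 0.05 over all tested genes. Because the genes were chosen with results of these data known, no test was made of this difference, and an exact two-sided permutation test over 2 and 2 libraries cannot go below p = 0.33.

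The size of this difference depended on which genes were counted. Without Hspa1a and Hspa1b the change was -0.91, without Hsp90aa1 it was -3.12, and with the median over genes in place of the mean it was -1.58. The inducible mean without Hspa1a and Hspa1b was 12.80 and 12.17 in controls and 12.71 and 12.49 after tamoxifen. The constitutive mean rose from 12.82 and 12.53 to 13.77 and 13.63, with only Hspd1 and Hspe1 called higher. The difference was not computed without Hspd1 and Hspe1, so a shift of either class as a whole was not shown. Left out in turn, single libraries gave -2.68 to -2.03.

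Pairs of close relatives were also compared per kilobase of transcript within each library. Hspa1a plus Hspa1b amounted to 9.99% and 5.67% of Hspa8 in controls and to 1.00% and 0.257% in the tamoxifen libraries. Hsp90aa1 moved the other way relative to Hsp90ab1, the constitutive form of cytosolic HSP90, from 7.02% and 5.13% to 21.6% and 21.3%. By mRNA, Hspa1a plus Hspa1b were thus lower relative to Hspa8, and Hsp90aa1 was higher relative to Hsp90ab1. Neither ratio overlapped between groups, and the levels of 82.3% of all tested genes did not overlap either. Other HSP70 genes were not part of these ratios.

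**Figure D4:**
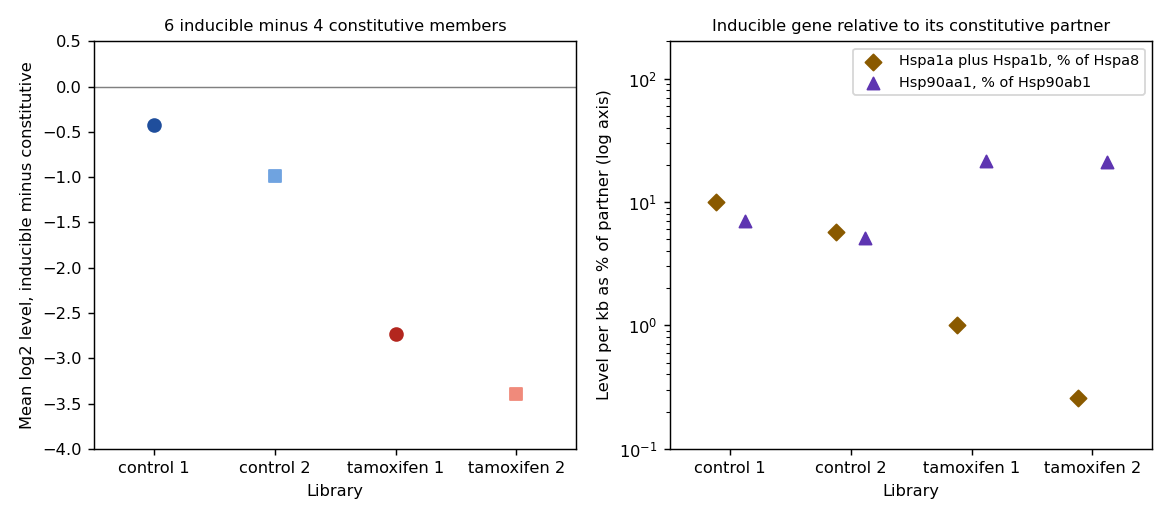
Left, mean log2 level of 6 inducible minus 4 constitutive genes in each library (blue for control, red for tamoxifen). Right, level per kilobase of Hspa1a plus Hspa1b as a percentage of Hspa8 and of Hsp90aa1 as a percentage of Hsp90ab1 (log axis). The left values fall from -0.43 and -0.99 to -2.74 and -3.39, and the percentages of the HSP70 and HSP90 pairs move in opposite directions.

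The ranking of the 10 genes changed with their levels. In normalized counts per kilobase of transcript, the control order began with Hspa8 (mean 19216), Hspb1 (12519) and Hspa5 (4323), each separated from the next gene in both libraries. Below them came Hsp90aa1, Dnajb1, Hspd1, Hspa1b, Hspe1, Hsph1 and Hspa1a, from 1793 to 528, whose neighbors in the order all overlapped between libraries. Within each control library Hsp90aa1 was above Dnajb1 and Hsph1 above Hspa1a, while the other neighbors among these changed order.

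In the tamoxifen libraries the order per kilobase was Hspa8 (16141), Hsp90aa1 (9944), Hspd1 (5598), Hspa5 (5171), Hspb1 (3342), Hspe1 (3050), Dnajb1 (861), Hsph1 (756), Hspa1b (77.5) and Hspa1a (25.7). Neighbors overlapped only for Hspd1 with Hspa5, Hspb1 with Hspe1, and Hspa1b with Hspa1a. Within each tamoxifen library Hspa1b was above Hspa1a, while the other overlapping neighbors changed order. Hspb1 thus moved from the second place to the fifth and Hsp90aa1 from the fourth to the second.

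Together the 10 genes made up 0.226% and 0.170% of all normalized counts in controls and 0.344% and 0.338% after tamoxifen. Within that sum Hspa8 went from 45.7% and 44.6% to 30.1% and 31.1%, and Hsp90aa1 from 6.63% and 5.68% to 29.0% and 26.5%. Hspa1a plus Hspa1b went from 5.46% and 3.02% to 0.358% and 0.0952%.

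Libraries of the same group differed in these genes as well. All 10 were higher in control library 1 than in control library 2, a direction shown by 43.6% of all tested genes. Hsph1, Hspa1a and Hspa1b differed there 2.75-fold, 2.57-fold and 2.33-fold, and they were the 3 that differed by more than 1 on the log2 scale, as did 15.6% of all genes, whose median absolute log2 difference was 0.29. In the tamoxifen group, 8 of 10 were higher in library 1 (58.0% of all genes), and Hspa1b and Hspa1a differed by 2.09 and 1.82 on the log2 scale, where 11.4% of all genes differed by more than 1.

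The rest of the chaperone network was read from whole lists, in which 122 genes outside the 10 were tested. Of these, 37 were higher and 25 lower (limma, BH-adjusted p under 0.05), with a median log2 fold change of 0.15. These are 30.3% and 20.5%, below the 33.4% and 25.5% of all tested genes, so the counts are no result about the network, and those of the single lists below stand beside the same background. Both numbers shifted with scaling, to 69 higher and 11 lower with equal totals and to 44 and 30 after quantile normalization. The background shifted too. Of all 20485 tested genes, 6843 were called higher and 5228 lower before rescaling. With equal totals these were 9068 and 2862, and after quantile normalization 5707 and 7405. Counts of single lists under either scaling stand beside these numbers. Fewer of the 122 genes were called when either tamoxifen library was left out, and the same was true of all tested genes. Counts given below with a library left out stand beside that general loss of calls.

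Among HSP70 and HSP110 genes outside the chaperones chosen, 6 of 10 tested were higher and 1, Hspa12b, was lower, where 33.4% and 25.5% of all tested genes were. Hspa9, the mitochondrial HSP70 that pulls proteins into the matrix, had 4927 and 5492 normalized counts in controls and 19228 and 16816 after tamoxifen (log2 fold change 1.79, limma, BH-adjusted p = 0.000116). Hspa2, best known from the testis, rose from 490 and 648 to 1432 and 2212 (1.66, limma, BH-adjusted p = 0.000947), although it was not called without tamoxifen library 2 (1.34, limma, BH-adjusted p = 0.0716). Counting the whole family of 15, 6 were higher and 3 lower, and without tamoxifen library 2 there were 3 and 1.

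In the HSP90 family, Hsp90aa1 and Trap1 were called higher and none of the 4 genes lower. Hsp90ab1 had 84011 and 73981 normalized counts in controls and 135320 and 115297 after tamoxifen, which did not overlap but did not pass the test (0.66, limma, BH-adjusted p = 0.133). It passed with DESeq2, equal totals and quantile normalization. Hsp90b1, the form of the endoplasmic reticulum, had a log2 fold change of 0.12 (limma, BH-adjusted p = 0.612), and Trap1, the mitochondrial form, of 0.61 (limma, BH-adjusted p = 0.0152). The Trap1 call was lost without the variance trend and without control library 1, tamoxifen library 1 or tamoxifen library 2, with 0.51, 0.48 and 0.74. With equal totals or quantile normalization all 4 genes of the family were higher.

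Small heat shock proteins split. Hspb1 and Hspb8 were lower, and 4 of the 7 tested genes were higher, a number that was 2 after quantile normalization. Cryab, αB-crystallin, had 126 and 278 normalized counts in controls and 823 and 999 after tamoxifen (2.27, limma, BH-adjusted p = 0.00135). Hspb7, known from heart and skeletal muscle, had 2.74 and 11.3 against 42.3 and 64.7 (2.98, limma, BH-adjusted p = 0.00921). Hspb8, a partner of Bag3, fell from 2659 and 2602 to 1733 and 1239 (-0.84, limma, BH-adjusted p = 0.00682). Without tamoxifen library 1 or 2, 1 of the 7 was called higher, since Cryab (2.41 and 2.13) and Hspb7 (3.28 and 2.68) then missed the threshold, and without library 2 so did Hspb8 (-0.60). Hspb8 was also not called with equal totals (-0.37, limma, BH-adjusted p = 0.0982) or without the variance trend (limma, BH-adjusted p = 0.0560).

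J-domain cochaperones of types A and B, with Dnajb1 counted among them, were lower for 7 and higher for 2 of 16 tested genes. Their median log2 fold change was -0.53. Dnajb5 fell from 5398 and 5508 normalized counts to 2000 and 1831 (-1.51, limma, BH-adjusted p = 0.000123), and Dnaja4 from 1740 and 1408 to 590 and 580 (-1.42, limma, BH-adjusted p = 0.000439). Dnajb13, which belongs to the radial spokes of cilia and sperm tails, rose by 1.52 (limma, BH-adjusted p = 0.0190) and Dnaja2 by 0.50 (limma, BH-adjusted p = 0.0359). With equal totals the split was 3 lower and 4 higher, and without tamoxifen library 1 or 2 there were 2 and 1 lower and 0 higher, while 1 was higher without either control library. Dnaja2 lost its call without any one of the libraries (0.35 to 0.64), Dnajb13 without either tamoxifen library (1.71 and 1.34) and Dnaja4 without tamoxifen library 2 (-1.41). After quantile normalization Dnajb13 was at 0.29 (limma, BH-adjusted p = 0.595), and Dnaja2 was not called without the variance trend or without the filter (limma, BH-adjusted p = 0.128 and 0.0510).

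The larger type C group had 8 genes lower and 4 higher of 26, with a median of -0.23 that became 0.24 with equal totals, where 2 were lower and 9 higher. Dnajc22 had 0 reads in both control libraries and 143 and 117 normalized counts in the tamoxifen libraries, at least 33.1-fold higher against a floor of 3 reads per library. Dnajc6, the neuronal auxilin that recruits Hspa8 to clathrin, rose from 30.1 and 65.1 to 478 and 661 (3.63, limma, BH-adjusted p = 0.000314). Without tamoxifen library 1 or 2 its log2 fold change was 3.87 and 3.40 but missed the threshold (limma, BH-adjusted p = 0.0632 and 0.0798). Dnajc1 fell by 1.30 (limma, BH-adjusted p = 0.000221) and Dnajc10, a disulfide reductase of the endoplasmic reticulum, by 0.98 (limma, BH-adjusted p = 0.00185). Without control library 2, tamoxifen library 1 or tamoxifen library 2, 5, 5 and 3 genes were called lower.

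Cytosolic cochaperones of HSP70 and HSP90 were called higher for 5 and lower for 4 of 21. Fkbp5, an HSP90 cochaperone of steroid receptors, rose from 734 and 1313 to 3750 and 3303 normalized counts (1.84, limma, BH-adjusted p = 0.000702). Stip1, which bridges HSP70 and HSP90, rose from 5768 and 4663 to 13575 and 11172 (1.25, limma, BH-adjusted p = 0.000877). Bag5 fell by 1.66 (limma, BH-adjusted p = 9.99e-05), Unc45a, a myosin chaperone, by 1.04 (limma, BH-adjusted p = 0.000668) and Bag3, an HSP70 exchange factor, by 0.94 (limma, BH-adjusted p = 0.00218). With equal totals 12 were higher and 3 lower. Called higher were 2 without control library 2, 0 without tamoxifen library 1 and 1 when library 2 was left out, and 2 were called lower without tamoxifen library 2. The call of Fkbp5 was lost without either tamoxifen library (1.75 and 1.93), that of Stip1 without library 1 (1.11) and that of Bag3 without library 2 (-0.77).

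Genes of TRiC, the ring that folds actin and tubulin, and of prefoldin, which feeds it, were higher for 10 and lower for 1 of 14, with a median log2 fold change of 0.68. Cct2 had 5983 and 5915 normalized counts in controls and 17598 and 14300 after tamoxifen (1.41, limma, BH-adjusted p = 0.000356). Tcp1 had 4648 and 4279 against 12153 and 10610 (1.35, limma, BH-adjusted p = 0.000301), and both were called in all 14 alternatives. The one fall was that of the prefoldin subunit Pfdn5 (-0.65, limma, BH-adjusted p = 0.0171), which was not called with equal totals (-0.18), quantile normalization (-0.41), without the variance trend or without control library 2, tamoxifen library 1 or tamoxifen library 2. The direction of the list held with equal totals (13 higher, 0 lower) and quantile normalization (9 higher, 0 lower), and 6, 4 and 5 genes were called higher when control library 2, tamoxifen library 1 and tamoxifen library 2 were left out in turn.

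Besides Hspd1 and Hspe1, 2 of the 11 other tested mitochondrial chaperones and proteases were higher, Hspa9 and Trap1, and 0 were lower. The median of all 13 was 0.35. With equal totals 11 were higher, and after quantile normalization 5 were higher and 1 lower. In this list the 3-repeat heat shock element was found in 2 of 13 windows, those of Hspd1 and Hspe1.

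Chaperones of the endoplasmic reticulum, with Hspa5 counted among them, were called higher for 3 and lower for 3 of 17, with a median of 0.11. Sdf2l1 rose from 310 and 363 to 753 and 649 normalized counts (1.06, limma, BH-adjusted p = 0.00471) and Canx, the lectin calnexin, from 16801 and 16365 to 28886 and 25715 (0.72, limma, BH-adjusted p = 0.0155). Dnajb9 fell from 2818 and 2334 to 1155 and 1296 (-1.07, limma, BH-adjusted p = 0.00118) and Dnajc3, an HSP70 cofactor and kinase inhibitor, by 0.72 (limma, BH-adjusted p = 0.00524). The ER stress element was found in 7 of these 17 windows, against the 0.124% of all windows given above. The balance of this list rests on scaling, with 9 higher and 1 lower at equal totals and 10 and 1 after quantile normalization. Calls among the 17 fell to 0 higher and 1 lower when tamoxifen library 1 was left out, to 0 and 0 when library 2 was, and to 1 higher without either control library, since Canx needed all libraries (0.63 to 0.80 otherwise), Sdf2l1 (0.95 and 1.17) and Dnajb9 (-0.98 and -1.15) both tamoxifen libraries and Dnajc3 tamoxifen library 2 (-0.64 without it). Scaling moved some of these further, with Dnajc3 not called at -0.25 with equal totals and -0.26 after quantile normalization (limma, BH-adjusted p = 0.126 and 0.103), and Sdf2l1 not called at 0.37 after quantile normalization (limma, BH-adjusted p = 0.158).

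**Figure D5:**
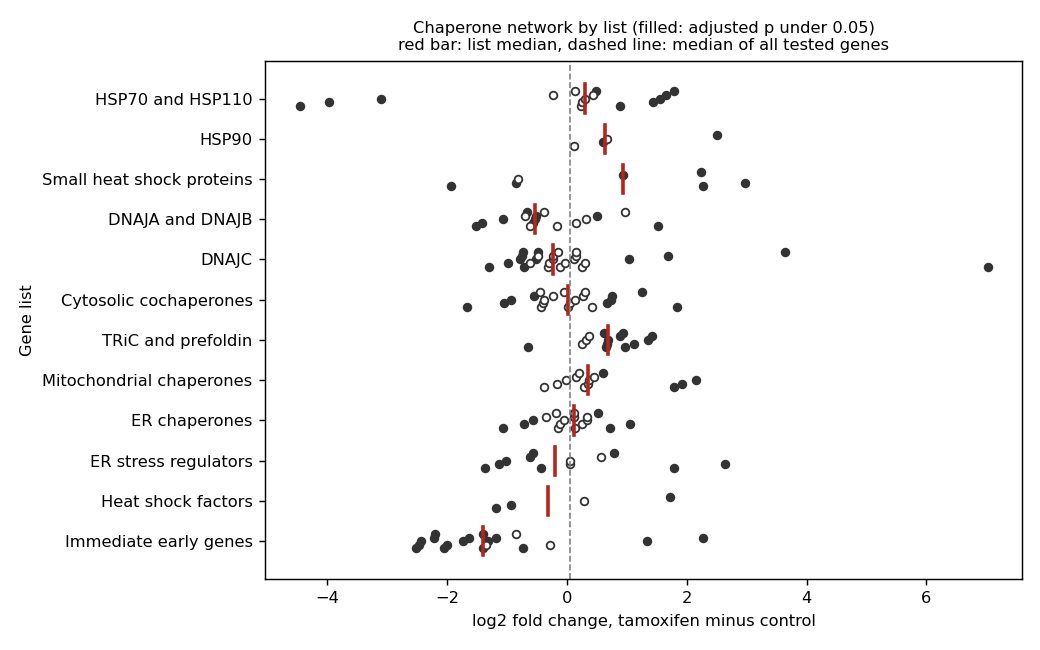
log2 fold change (tamoxifen minus control, x axis) of each tested gene in 12 lists of chaperone and stress genes, filled where the BH-adjusted p is under 0.05, with a red bar at the list median and a dashed line at the median of all tested genes (0.05). The point at the far right is Dnajc22, a fitted value for a gene with 0 reads in both control libraries. TRiC and prefoldin genes lie mostly to the right of the line and immediate early genes mostly to the left.

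Of the heat shock factors, Hsf1 fell from 2907 and 3441 to 1840 and 1507 normalized counts (-0.92, limma, BH-adjusted p = 0.00274), a call lost without tamoxifen library 2 (-0.78, limma, BH-adjusted p = 0.0781). Hsf2 had 1188 and 944 against 1246 and 1348 and was not called (0.29, limma, BH-adjusted p = 0.204). Hsf4, best known from the lens, fell by 1.19 (limma, BH-adjusted p = 0.0290) and Hsf5, a testis factor, rose by 1.71 from few counts (limma, BH-adjusted p = 0.0399), and neither was called without control library 2 or without either tamoxifen library. Hsf4 was also not called with equal totals (-0.72, limma, BH-adjusted p = 0.137), and Hsf5 was not called after quantile normalization (0.66, limma, BH-adjusted p = 0.344), with DESeq2 (BH-adjusted p = 0.125) or without the filter (limma, BH-adjusted p = 0.0550). The mRNA of a factor does not measure its activity, which depends on trimer formation and phosphorylation.

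Of 15 known targets of heat shock factor 1 outside the 10 genes, 4 were higher and 4 lower, with a median log2 fold change of 0.06. Cryab and Hspa4l, an HSP110 relative (727 and 681 against 1615 and 2229 normalized counts, 1.43, limma, BH-adjusted p = 0.000630), rose most. Bag3, given above, was among the falls. The core of the heat shock element was found in 4 of these 15 windows. Equal totals gave 8 higher and 2 lower, and with tamoxifen library 1 or 2 left out the numbers higher were 1 and 2 and the numbers lower 4 and 1.

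Immediate early genes, which cells induce within minutes of a stimulus and also during tissue dissociation, were lower for 14 and higher for 2 of 19, with a median log2 fold change of -1.40. Fosb fell from 2846 and 3610 to 553 and 566 normalized counts (-2.52, limma, BH-adjusted p = 3.81e-05) and Zfp36, which destabilizes mRNAs, from 10202 and 8717 to 2390 and 1223 (-2.46, limma, BH-adjusted p = 0.000278). Fosl1 rose by 2.26 (limma, BH-adjusted p = 0.0162) and Socs3, a brake on cytokine signaling, by 1.34 (limma, BH-adjusted p = 0.00106), neither of them called without tamoxifen library 1 or 2. After quantile normalization Fosl1 was at 1.26 (limma, BH-adjusted p = 0.116). Lower calls numbered 9 without tamoxifen library 1 and 7 without tamoxifen library 2. Hspa1a, Hspa1b, Hspb1 and Dnajb1 were also called lower, whereas Hsp90aa1, Hspd1 and Hspe1 were called higher. Lower calls were made for 25.5% of all tested genes and for all 13 endothelial markers, so the shared direction is not particular to these genes. Whether handling of the cells had a part was not tested.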

How the data were processed

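RNA-Seq of 2 control and 2 tamoxifen libraries was analyzed. Per the submitters' processing notes and the methods, STAR 2.7.10a was used by the authors for alignment to GRCm39 and for counting, and DESeq2 1.36.0 for normalization after genes with few reads were dropped. The deposited signal is the count of each gene over a factor that is the same for the whole library. Reads could be recovered as whole numbers in 100% of values (tolerance 0.01 reads). Annotation release, strand setting, low-count limit and treatment of reads with several matches are not given in the sources used here. Columns lettered C were read as control and A as tamoxifen (AVM), from the letters. No column of sample values was left unused (0).

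Groups were compared with limma 3.58.1 (R 4.3.3, lmFit followed by eBayes with a trend) on log2(normalized count + 1), without covariates, for genes averaging 10 or more, with Benjamini-Hochberg (BH) adjustment over all tested genes and calls at an adjusted p under 0.05. On this scale, changes of low genes are understated. The p-values rest on the spread shared across genes and on the spread between 2 pools per group. The fit was tested on simulated counts in which few genes changed and the spread was fixed. These libraries differ from that setting, so the test says nothing about their scaling or spread. The alternatives changed the tool (edgeR 4.0.16 or DESeq2 1.42.0, both on recovered reads), the scaling (equal totals or quantile normalization), the pseudocount (0.5 or 5), the filter (none or a mean of 100) or the variance trend (none), added the replicate number as a block, or left out a library. When a library is left out, the lone library of its group is assumed to vary like the other group. The comparison of libraries within a group was added after the values had been seen.

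The 10 genes and all lists were chosen with earlier results of these data known. Besides the 10, the genes named are, from each list of chaperones or stress genes, the 2 called with the largest rise and the 2 with the largest fall, the genes Hsp90ab1, Hsp90b1, Hspa9, Hsf1, Hsf2, Cryab, Bag3 and Ddit3, the 3 closest profiles to Hspa1a and Hspa8, and Mgp, Pecam1 and Cdh5. One gene that this rule names is not reported here. Ptprc, marker genes at the level of 3 reads, and genes that overlap or share sequence with the 10, were named after their values were seen. Gene positions, canonical transcripts, transcript lengths and promoter windows were taken from GENCODE M39 on GRCm39 with Python 3.11.15 and pandas 2.3.3. Limits given as 3 reads cover counting error only.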

Additional observations from a re-analysis of the deposited data

How the results depend on the processing

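Each library left out in turn gave log2 fold changes of -5.37 to -3.55 for Hspa1a, -5.01 to -2.92 for Hspa1b, -0.30 to 1.16 for Hsph1 and -0.71 to -0.37 for Dnajb1, with 1 to 4 of the 10 genes called lower and 3 to 4 higher. Over all tested genes, 2648 to 6838 were then called higher and 1850 to 4757 lower, and of the other chaperone genes 12 to 28 higher and 8 to 22 lower. Dnajb1 lost its call with equal totals (-0.068), quantile normalization (-0.29) and no variance trend (-0.54). Quantile normalization reversed Hspa8 to 0.79 and called 5 of the 10 genes higher. Hspa5 passed with equal totals (0.73) and quantile normalization (1.05). With equal totals 2862 genes were called lower, and 69 other chaperone genes were called higher and 11 lower. Without the variance trend 16 of those were lower. With the size limit added, 3284 genes in all were lower, and 20 other chaperone genes were higher and 9 lower. The inducible minus constitutive change was -0.91 without Hspa1a and Hspa1b, -3.12 without Hsp90aa1 and -1.58 with medians. The causes were not tested.

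The replicate block called 12635 genes against 12071 and ended or added no call among the 10 genes or the other genes named. Deviations of libraries with the same number correlated at 0.0251. With 2 libraries a group, this rests on a single difference per gene in each group and cannot show whether the samples were paired.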

Other observations

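Regulators of the endoplasmic reticulum stress response, which act above Hspa5, were called higher for 3 and lower for 6 of 12, with a median log2 fold change of -0.20 that became 0.27 with equal totals. Asns, which makes asparagine and is induced through ATF4, rose from 868 and 890 normalized counts in the control libraries to 6453 and 4614 in the tamoxifen libraries (2.63, limma, BH-adjusted p = 4.11e-05). Sesn2, a stress-induced inhibitor of mTORC1, rose from 614 and 643 to 2531 and 1877 (1.79, limma, BH-adjusted p = 0.000190). Herpud1, a component of the degradation machinery of the endoplasmic reticulum, fell from 5490 and 5269 to 2302 and 1889 (-1.37, limma, BH-adjusted p = 0.000278), and Ern1, the sensor IRE1, from 2672 and 2506 to 1254 and 1107 (-1.13, limma, BH-adjusted p = 0.000604). These 4 were called in all 14 alternatives. Ddit3, the gene of CHOP, overlapped between groups (0.04, limma, BH-adjusted p = 0.871). Without control library 1 or tamoxifen library 2 the genes called lower numbered 3, and without tamoxifen library 1 those called higher numbered 2.

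Oxidative and metal stress genes were higher for 7 and lower for 2 of 12, with a median log2 fold change of 1.05. Slc7a11, the cystine importer, rose from 281 and 327 normalized counts to 2157 and 4418 (3.35, limma, BH-adjusted p = 0.000111). Mt3, a metallothionein of the brain, rose from 234 and 337 to 1175 and 2734 (2.67, limma, BH-adjusted p = 0.000713). Markers of astrocytes (9 of 9) and of most other cells also rose, and their part in this was not tested. The call of Mt3 was lost without tamoxifen library 2 (2.06). Osgin1 fell by 1.10 (limma, BH-adjusted p = 0.0219) and Sqstm1, an autophagy receptor, by 1.03 (limma, BH-adjusted p = 0.00368), and Sqstm1 was not called after quantile normalization (-0.41) or without tamoxifen library 2 (-0.85). Osgin1 was not called with equal totals (-0.63), without the variance trend or without control library 1 (-0.85), tamoxifen library 1 (-1.44) or tamoxifen library 2 (-0.77). Without tamoxifen library 1 or 2, 4 genes of this list were called higher.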
